A study of Homo sapiens with 8 samples.

Results

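What IFN-γ still did when the kinase inhibitor AX-0085 was present on both sides of a comparison was read from 4 libraries of A549 cells: 2 libraries of cells given both agents, labelled IFN-gamma (+) AX0085 (+), and 2 of cells given the inhibitor only, labelled IFN-gamma (-) AX0085 (+). They are 4 of the 8 RNA-seq libraries of the series, and were taken by their labels, not by any measured value. A549 is an established human lung adenocarcinoma line, and AX-0085 is a compound known by its code name that the study describes as blocking IFN-γ signaling through JAK2. The other 4 libraries, 2 untreated and 2 with IFN-γ alone, share no library with this comparison and give the IFN-γ effect without the inhibitor. IFN-γ was given at 20 ng in the labels, which name no volume, and the study's methods give 20 ng/mL as the general dose. IFN-γ preceded AX-0085 (0.5 μM) by 24 h, with harvest another 24 h later. RNA made in the hours before the inhibitor and RNA made after it therefore cannot be told apart. The study prepared each group in duplicate and neither the labels nor the methods say whether the duplicates were separate cultures, so that the p-values measure the spread between these libraries, which may be technical.

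IFN-γ binds a receptor whose associated kinases JAK1 and JAK2 start a phosphorylation signal to the nucleus. There, gamma-activated sites (GAS) control a first set of genes, among them the interferon regulatory factors, which act through a second sequence, the interferon-stimulated response element (ISRE). In epithelial tumor cells the pathway is known for raising MHC class I and class II molecules, the immunoproteasome, guanylate-binding proteins and the checkpoint ligand PD-L1, encoded by CD274.

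Promoters of a called and an uncalled gene of this pathway show the letters in question. The stretches below were taken from RefSeq promoters (GRCh38.p14), upstream of the RefSeq start and outside exons annotated in GENCODE 44, and capitals mark matches on either strand to the ISRE core, which is GAAA, any 2 bases and GAAA again, or to the GAS letters, which are TTC, any 3 bases and GAA. IFI27 encodes a small interferon-inducible membrane protein, and in its promoter a GAS match overlaps an ISRE match on each side (chr14:94110486-94110677, plus strand). In CD274, 2 ISRE matches overlap each other and a GAS match lies apart from them (chr9:5450292-5450502, plus strand).
IFI27: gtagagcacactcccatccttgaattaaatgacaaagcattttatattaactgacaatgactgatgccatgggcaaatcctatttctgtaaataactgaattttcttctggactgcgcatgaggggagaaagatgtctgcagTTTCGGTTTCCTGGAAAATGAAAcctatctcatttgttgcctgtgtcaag
CD274: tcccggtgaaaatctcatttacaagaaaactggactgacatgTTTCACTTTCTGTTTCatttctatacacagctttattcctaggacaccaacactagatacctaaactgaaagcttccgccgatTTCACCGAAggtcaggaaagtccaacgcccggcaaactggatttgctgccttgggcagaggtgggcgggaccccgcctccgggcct
A RefSeq promoter could be matched by symbol to 10668 of the 15066 tested genes, and in the 250 bases upstream of their starts 2.31% held the ISRE core and 5.33% the GAS letters. Only 65.8% of the genes called higher and 66.7% of those called lower had a promoter in the table, which is under 80%, so a comparison of motif shares between them is void. Both printed promoters hold both motifs, while the genes differed in the response that was left, as given below. Of the largest rises named below, HLA-B, HLA-C, CD74, HCP5 and GBP4 held neither motif in the same window. GBP1 and HLA-F held the ISRE core only, and BST2 held both motifs. The printed pair therefore does not stand for the genes that still responded.

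Total counts ran from 20672828 to 29978251 per library, and 3 counts were worth 0.0959 to 0.158 CPM, the unit of library-scaled counts (TMM factors) used below, a limit that covers counting error only. Within a group the 2 libraries differed by more than counting noise: chi-square divided by its degrees of freedom was 9.34 for AX-0085 and 30.7 for both agents. All 6 epithelial markers passed the filter on low counts, and the 6 leukocyte markers summed to at most 5 counts and the 5 endothelial markers to at most 13 counts in any library. The 5 fibroblast markers summed to between 76 and 275 counts, and 1 of them, the collagen gene COL1A1, was tested. It had 228 and 251 counts with AX-0085 and 214 and 186 with both agents. Some genes are listed at 0 counts in all 8 libraries, including IRF1, TAP1, IDO1 and the core proteasome genes PSMA2 and PSMA3. Since every cell uses the proteasome, nothing is read from such a 0. In bulk RNA, fewer cells expressing a gene and less of its RNA per cell cannot be told apart.

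With AX-0085 in both groups, IFN-γ still raised 269 of 15066 tested genes (1.79%) and lowered 261 (1.73%). A call required an adjusted p under 0.05 in edgeR's quasi-likelihood test together with a change of more than 1 on the log2 scale. Without the inhibitor, IFN-γ raised 1547 genes (10.3%) and lowered 2590 (17.2%). Of the 1547, 161 were also called higher under AX-0085, which is 10.4% of the genes higher with IFN-γ alone and 59.9% of those higher under the inhibitor. Of the 2590, 181 were also called lower, or 6.99% and 69.3% of the respective lists. The 2 effects rest on different libraries. Tested against a 2-fold change with glmTreat, 62 genes were higher and 18 lower. The calls that this leaves out were not distinguishable from a 2-fold change. With the adjusted p alone, 2601 were higher (17.3%) and 2627 lower (17.4%).

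**Figure D1:**
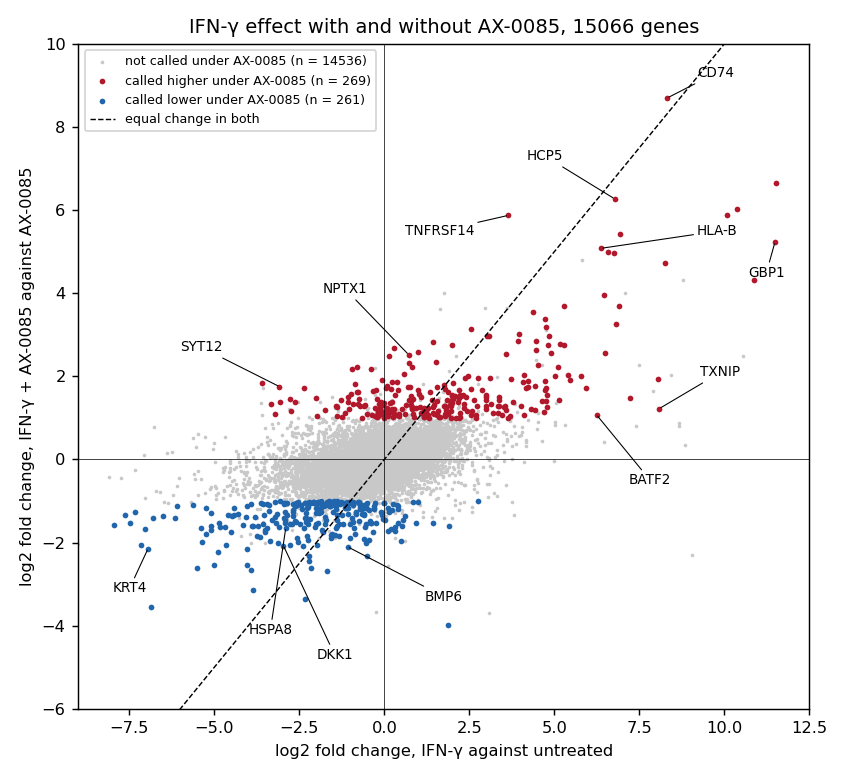
Each point is 1 of 15066 genes. The x axis gives the log2 fold change of IFN-γ against untreated cells, the y axis that of IFN-γ with AX-0085 against AX-0085, and the dashed line marks equal change. The 269 genes called higher under AX-0085 are red and the 261 called lower are blue. CD74 and HCP5 lie near the line, and BMP6 lies below it.

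The shared direction went further than the calls. Among the genes higher with IFN-γ alone, 1280 (82.7%) had a positive change under AX-0085, against 49.4% of all tested genes, and 758 of them passed the adjusted p in that direction against 29 in the other. Among the genes lower with IFN-γ alone, 2017 (77.9%) had a negative change, against 50.5% of all genes, with 959 passing the adjusted p downward and 88 upward. The log2 change under AX-0085 was a median of 25.2% of that without it for the raised genes (quartiles 7.95% and 40.6%) and 18.3% for the lowered genes (quartiles 2.40% and 34.5%). Across all tested genes the 2 effects had a Pearson's r of 0.52 and a Spearman's rho of 0.48, a description over genes that share libraries within each effect and are not independent replicates. The difference of the 2 effects was itself called for 2800 genes (18.6%), including 824 of the 1547 raised and 1594 of the 2590 lowered genes, in each case against the direction of the effect without the inhibitor. One lowered gene, BMP6, was called the other way.

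The share of genes called again went up with the size of the original effect. Of 1163 genes raised by a log2 change of 1 to 2 with IFN-γ alone, 4.13% were called higher under AX-0085, and of the 91 raised by more than 4, 62.6% were. For lowered genes the shares were 3.43% of 1693 and 30.2% of 129. The limit for a call is the same in both, so that a larger effect can lose more before its call is lost. The median share of the change that was left went from 24.6% to 36.2% between these size classes for raised genes, and from 19.8% to 14.7% for lowered genes.

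**Figure D2:**
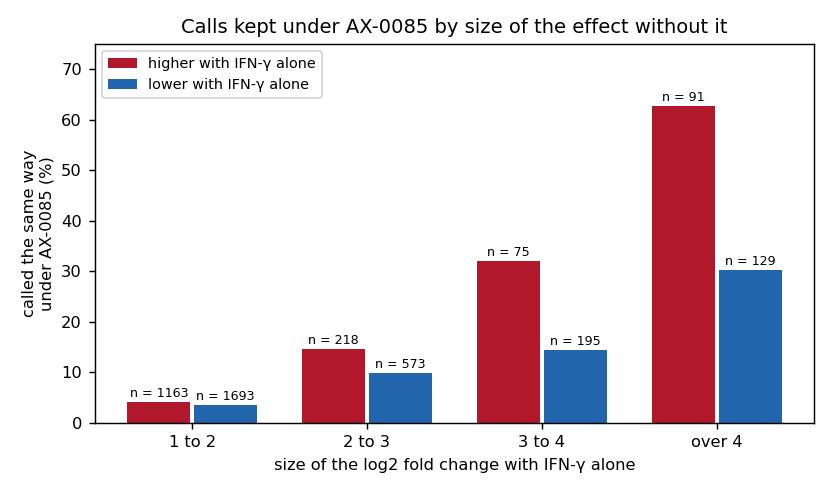
Bars give the percent of genes called in the same direction under AX-0085 (y axis, from 0) by the size of the log2 fold change with IFN-γ alone (x axis), with the number of genes above each bar. The shares of the raised genes (red) run from 4.13% to 62.6%, and those of the lowered genes (blue) from 3.43% to 30.2%.

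Most tested genes of class I antigen presentation rose. Of 15 tested genes for MHC class I and peptide loading, 9 were higher under AX-0085 (60%, against 1.79% of all tested genes). None was lower, and with IFN-γ alone 10 were higher and 1 lower. The median log2 change under AX-0085 was 1.30 against -0.0058 for all tested genes. The chaperone CALR passed the adjusted p downward (-0.69, short of the fold limit), and TAPBP, CANX and PDIA3 of the loading complex had log2 changes of -0.15, -0.046 and -0.10. The 9 included HLA-B, HLA-C, HLA-F and HLA-G among the heavy chains, the light chain B2M, the tapasin-related TAPBPL and the transactivator NLRC5. The HLA genes are near-identical in places, so their shares of the reads are uncertain, and 47.3% of the exon bases of HLA-B overlap another annotated gene. HLA-B (chr6:31353872-31367067, GRCh38), a classical class I heavy chain, stood at 11.7 and 10.9 CPM with AX-0085 and at 388 and 380 CPM with both agents. Every library with IFN-γ lay far above those without it, and the 2 groups did not overlap. Its log2 fold change was 5.08 (SE 0.08, edgeR adjusted p = 2.42e-13), and the level with IFN-γ alone was 1120 and 1043 CPM. HLA-C, another classical heavy chain, went from 63.0 and 57.6 CPM to 482 and 489 CPM, a log2 change of 3.01 (SE 0.07). For the non-classical HLA-F, 0.677 and 0.941 CPM became 9.91 and 11.3 CPM, a log2 change of 3.69. HLA-G changed by 3.37, from 4 and 8 counts with AX-0085 to 85 and 47 with both. Of these, the difference between the effects with and without AX-0085 was called for HLA-B and HLA-F. For HLA-C it was -0.95, which passed the adjusted p (4.78e-06, edgeR) and was just short of the fold limit. For HLA-G it did not pass (adjusted p = 0.16, edgeR).

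Other parts of the presentation machinery divided by subunit. The immunoproteasome subunits PSMB9 and PSMB8 replace constitutive catalytic subunits and shape the peptides for class I. PSMB9 was at 6.09 and 5.76 CPM with AX-0085 and 34.9 and 34.8 CPM with both, a log2 change of 2.56 (SE 0.10, edgeR adjusted p = 2.93e-09), and PSMB8 changed by 2.03. PSMB10 and PSME1, a further catalytic subunit and a part of the PA28 activator, had smaller changes of 0.73 each with adjusted p of 0.0024 and 1.26e-05 in edgeR, short of the fold limit. All 5 tested members of this list were called higher with IFN-γ alone. Under the inhibitor 2 of the 5 were (40%, against 1.79% of all tested genes). None of the 11 tested constitutive core subunits was called in either direction under AX-0085 by edgeR. Since 1.79% of all tested genes were called higher and 1.73% lower, this does not set them apart from other genes. By the adjusted p 2 went upward (18.2%, near the 17.3% of all tested genes), with PSMB6 at a log2 change of 0.46.

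CD74, the invariant chain that guards MHC class II molecules on their way to the endosome, had the largest fitted rise of the tested genes (chr5:150401637-150412969). It had 3 and 1 counts with AX-0085 and 1046 and 784 counts with both. The ratio was 442-fold with a 95% counting interval of 172 to 1623 (edgeR adjusted p = 2.65e-11). The fitted log2 change of 8.70 was 9.66 and 8.11 without the first and the second AX0085 library. At 33.5 and 35.2 CPM its level was near the 44.6 and 40.8 CPM of IFN-γ alone, and the difference between the 2 effects did not pass the test (adjusted p = 0.72). HLA-DRA and HLA-DRB1, chains of the class II molecule itself, had no count in the AX-0085 libraries and 7 and 4, and 6 and 2, with both, at least 3.54-fold and at least 2.57-fold higher against 3 counts over the group. HLA-DRB1 lost its call when any 1 of 3 libraries was left out (adjusted p = 0.0929 without the first and 0.104 without the second AX0085 library, and 0.169 without the first IFNg_AX0085 library). HLA-DRA lost it without the second AX0085 library (adjusted p = 0.0562) or the first IFNg_AX0085 library (adjusted p = 0.0611). HLA-DMB, which helps load class II peptides, moved the other way, from 3.54 and 3.12 CPM to 0.799 and 1.62 CPM (log2 change -1.53). In all, 3 of 8 tested class II genes were higher (37.5%, against 1.79% of all tested genes). Of these 3, HLA-DRA and HLA-DRB1 rest on the few counts given above. Of the 8, 1 was lower, against 1.73% of all tested genes. Only 1 was higher with DESeq2 or with the 4 libraries fitted alone.

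HCP5, a long non-coding RNA of the MHC region (chr6:31463170-31478936), stood at 0.119 and 0.150 CPM with AX-0085 and at 10.4 and 11.4 CPM with both agents, and the groups were far apart. These levels were 3 and 4 counts with AX-0085 and 326 and 253 with both. The log2 change was 6.28, compared with 6.77 for IFN-γ alone. Its SE of 0.24 was derived from the test statistic and may be too small at so few counts. The level with IFN-γ alone was higher, at 22.1 and 18.97 CPM.

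Complement genes encode plasma proteins that opsonize and lyse targets. Of 13 tested genes, 6 were higher (46.2%, against 1.79% of all tested genes): C1R, C1S, C3, C4A, C4B and SERPING1. C5 was lower (7.69%, against 1.73%). By the adjusted p, 7 went upward (53.8%, against 17.3% of all tested genes) and 3 downward (23.1%, against 17.4%). C3, the central component, was at 34.3 and 33.8 CPM with AX-0085 and 120 and 124 CPM with both. The libraries of a group differed by little, and the log2 change of 1.84 (SE 0.06) was 90.6% of that without the inhibitor. SERPING1, the inhibitor of C1, changed from 0.119 and 0.150 CPM to 3.33 and 4.18 CPM, a log2 change of 4.73 (SE 0.35). With AX-0085 it had 3 and 4 counts, so that this SE may be too small. C4B and C4A are near-identical copies whose reads cannot be assigned with certainty, and they changed by 2.98 and 2.86.

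Guanylate-binding proteins, large GTPases that attack intracellular pathogens, rose at very low levels. Of 5 tested members, 4 were called higher (80%, against 1.79% of all tested genes), and all 5 with IFN-γ alone. GBP1 had 2 and 1 counts with AX-0085 and 73 and 53 counts with both, a ratio of 40.6-fold (95% counting interval 13.6 to 199). In CPM these levels were 2.33 and 2.38 with both agents against 337 and 323 with IFN-γ alone, and the difference between the effects was called. GBP4 had no count with AX-0085 and 13 and 4 with both, at least 5.47-fold higher against 3 counts over the group, and its fitted log2 change of 6.04 was 5.21 without the first IFNg_AX0085 library. GBP3 changed from 0.478 and 0.677 CPM to 2.40 and 1.98 CPM, a log2 change of 1.92. The list's median log2 change of 4.33 was the fitted value of GBP5, which was not called. GBP5 had no count with AX-0085 and 2 and 3 with both. With GBP4 at its lower bound and GBP5 left out, the median was 2.19.

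**Figure D3:**
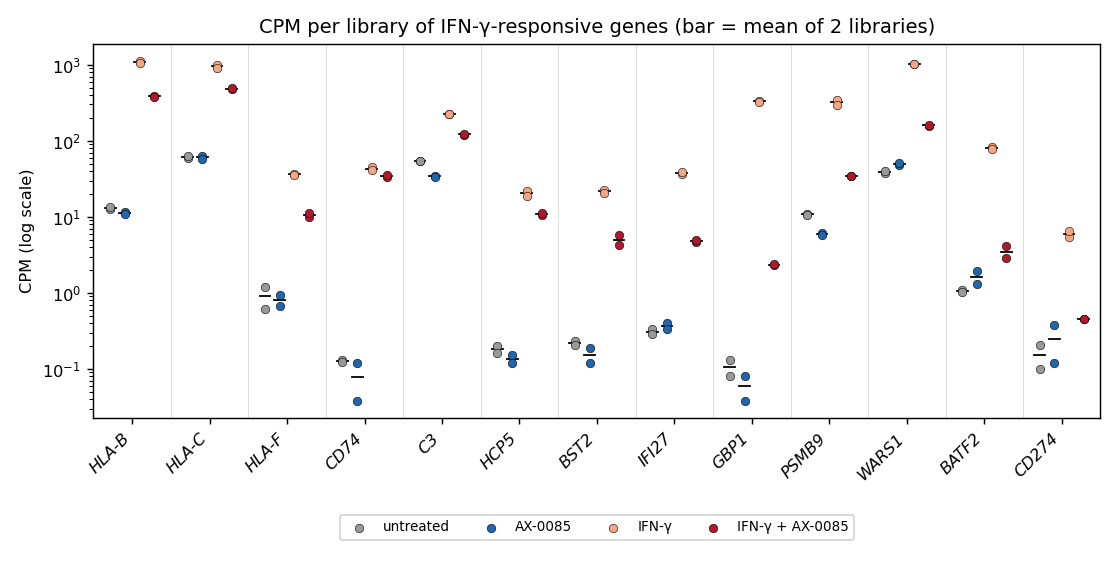
CPM per library on a log axis for 13 genes of the IFN-γ response, with the 4 groups in color and a bar at the mean of 2 libraries. The 2 red points (IFN-γ with AX-0085) lie close to the orange points (IFN-γ alone) for CD74, between orange and blue (AX-0085) for C3 and HLA-B, and just above the blue points for CD274.

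The called genes of the signaling pathway itself were transcription factors. JAK2, a kinase bound to the receptor, gave a log2 change of 0.11 with a 95% interval of -0.16 to 0.37 (edgeR adjusted p = 0.55). Among 20 tested genes for the receptor, JAKs, STATs and IRFs, 3 were higher (15%, against 1.79% of all tested genes) and none lower: IRF8, BATF3 and BATF2. BATF2 was at 1.91 and 1.32 CPM with AX-0085, 2.85 and 4.09 CPM with both and 83.8 and 77.5 CPM with IFN-γ alone. Its log2 change of 1.07 fell under the limit of 1, to 0.83, without the second AX0085 or the second IFNg_AX0085 library. BATF3 changed by 1.08. IRF8 changed by 2.65, from 5 and 4 counts with AX-0085 to 40 and 20 with both. Of 15 tested negative regulators of the pathway none was called by edgeR under AX-0085, near the 1.79% and 1.73% of all tested genes. By the adjusted p, 4 went upward (26.7%, against 17.3%) and 1 downward (6.67%, against 17.4%). SOCS3, a feedback inhibitor of JAK kinases, went from 20.2 and 16.9 CPM to 33.9 and 33.9 CPM, a log2 change of 0.87 with an adjusted p of 2.09e-05 in edgeR, which passed the fold limit (1.01) without the first AX0085 library.

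CD274 was at 0.119 and 0.376 CPM with AX-0085 and at 0.448 and 0.450 CPM with both, which is 3 and 10 against 14 and 10 counts. The libraries with both agents lay just above the others, and the spread of the AX-0085 libraries was wide. The log2 change was 0.82 (SE 0.51) with an interval of -0.28 to 1.93 (edgeR adjusted p = 0.23), so that a rise was not detectable at this depth. Without the second AX0085 library it was 1.87 (adjusted p = 0.0773). With IFN-γ alone CD274 reached 5.49 and 6.47 CPM, and the difference of the 2 effects was -4.49 (adjusted p = 0.000295).

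Of 9 tested genes in the list of checkpoint ligands and IDO1, 2 were higher (22.2%, against 1.79% of all tested genes). They were TNFRSF14 and WARS1, of which WARS1 is not a checkpoint gene. WARS1 charges tryptophan onto its tRNA. It was at 48.5 and 50.6 CPM with AX-0085 and 155 and 163 CPM with both, a log2 change of 1.68 (SE 0.06), against 1027 and 1035 CPM with IFN-γ alone. TNFRSF14, a receptor of the TNF family, had 1 and 2 counts with AX-0085 and 106 and 90 with both, a ratio of 63.1-fold (95% counting interval 21.3 to 309). Its 3.39 and 4.05 CPM with both agents were above the 0.581 and 1.29 CPM with IFN-γ alone, and the difference of the 2 effects did not pass the test (adjusted p = 0.16).

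Antiviral genes held fewer calls than without the inhibitor. Of 41 tested interferon-stimulated antiviral genes, 34 were higher with IFN-γ alone and 10 under AX-0085 (24.4%, against 1.79% of all tested genes). None was lower in either case, and the median log2 change under the inhibitor was 0.47. By the adjusted p, 22 went upward (53.7%, against 17.3%) and 3 downward (7.32%, against 17.4%). BST2, a tether that holds budding virions on the cell, went from 0.119 and 0.188 CPM to 5.72 and 4.32 CPM, a log2 change of 5.00 (SE 0.30). With AX-0085 it had 3 and 5 counts, so that this SE may be too small. IFI27, whose promoter is printed above, went from 0.398 and 0.339 CPM to 4.70 and 4.90 CPM, a log2 change of 3.69 (SE 0.20). With IFN-γ alone it reached 36.4 and 38.8 CPM. IFI44L had 1 count in each AX-0085 library and 20 and 16 with both, a ratio of 17.4-fold (95% counting interval 4.47 to 149). XAF1, which had 0 counts with AX-0085 and 4 and 1 with both, was at least 1.61-fold higher against 3 counts over the group, and it lost its call when any 1 of 6 libraries was left out, with adjusted p between 0.051 and 0.27.

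Genes of cell death and inflammation also held calls. Of 17 tested caspases, death receptors and apolipoprotein L genes, 4 were higher (23.5%, against 1.79% of all tested genes): APOL3, APOL1, CASP1 and TNFRSF1B. APOL3 had 0 and 1 counts with AX-0085 and 47 and 30 with both, a ratio of 74.3-fold (95% counting interval 12.9 to 2974), and its fitted log2 change of 5.89 was 5.09 and 8.19 without the first and the second AX0085 library. CASP1, the protease that matures IL-1β and IL-18, changed by 2.56 (SE 0.45) and by 3.37 without the first AX0085 library. With AX-0085 it had 5 and 2 counts, so that this SE may be too small. TNFRSF1B had 1 count in each AX-0085 library and 9 in each with both, and it lost its call without either AX0085 library. Of 22 tested cytokines, chemokines and adhesion genes, IL18BP and IL15RA were higher and IL1A and CCL2 lower. That is 9.09% each way, against 1.79% higher and 1.73% lower of all tested genes. By the adjusted p, 3 went upward (13.6%, against 17.3%) and 4 downward (18.2%, against 17.4%), near the shares of all genes. IL18BP, which binds and neutralizes IL-18, went from 1.47 and 1.66 CPM to 10.2 and 11.3 CPM, a log2 change of 2.77 (SE 0.14).

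Genes of the integrated stress response, in which kinases that sense amino acid shortage or misfolded protein act through ATF4, rose in part. Of 14 tested genes 6 were higher under AX-0085 (42.9%, against 1.79% of all tested genes) and 13 with IFN-γ alone. By the adjusted p 12 went upward (85.7%, against 17.3% of all tested genes) and 1 downward (7.14%, against 17.4%), ATF4 itself (-0.20). The median log2 change under the inhibitor was 0.85. TRIB3, a pseudokinase induced by ATF4, was at 208 and 191 CPM with AX-0085 and at 498 and 479 CPM with both. The groups were well apart, with a log2 change of 1.29 (SE 0.07). SESN2, a leucine sensor upstream of mTORC1, changed by 1.26, DDIT3 by 1.30 and ATF3 by 1.15. The level without IFN-γ was itself higher with the inhibitor: SESN2 was at 32.4 and 31.4 CPM with AX-0085 and 10.3 and 10.8 CPM in untreated cells. TXNIP, an arrestin-related inhibitor of thioredoxin and glucose uptake, had a like order, with 9.12 and 9.52 CPM with AX-0085, 20.8 and 22.9 CPM with both, 24.4 and 27.9 CPM with IFN-γ alone, and 0.0331 and 0.163 CPM in untreated cells. Its log2 change under the inhibitor was 1.23 (SE 0.11).

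**Figure D4:**
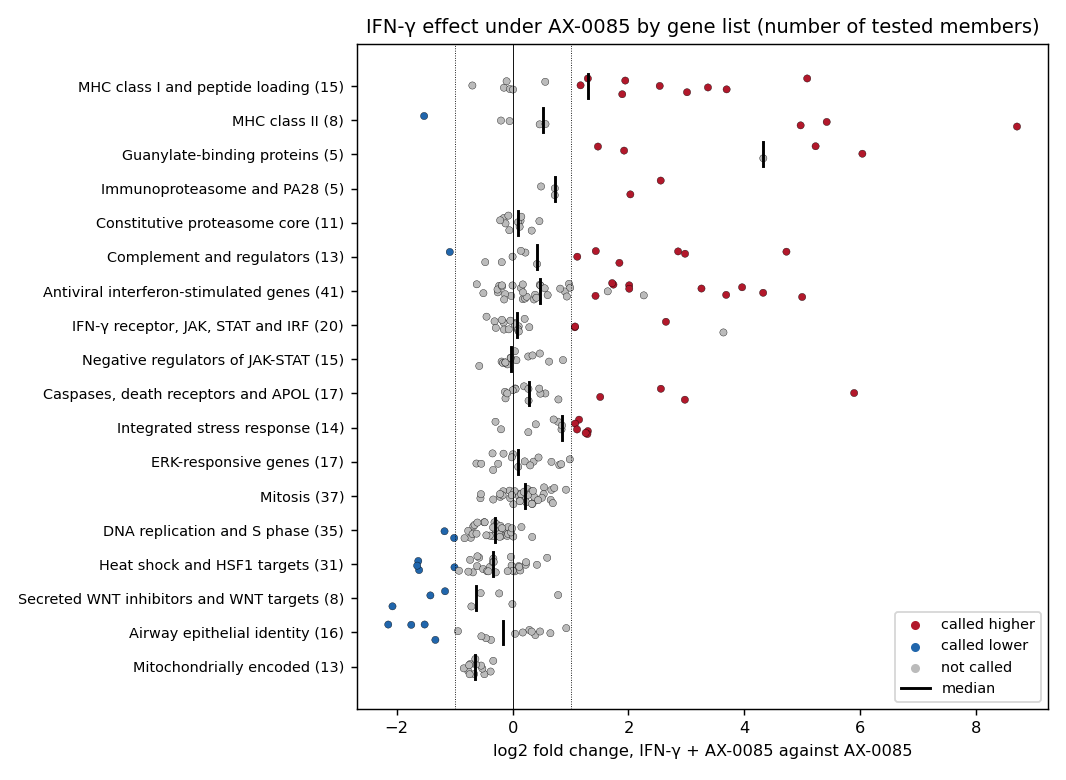
Each point is a tested gene of 1 of 18 lists, placed by its log2 fold change of IFN-γ with AX-0085 against AX-0085 (x axis). Red points were called higher, blue points lower, dotted lines mark a change of 1 and black bars the list's median. Class I genes spread to 5.08, while the 11 constitutive proteasome subunits and the 37 mitosis genes hold no called gene. Of all tested genes, 1.79% were called higher and 1.73% lower.

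Some abundant heat shock genes fell. Of 31 tested heat shock genes 4 were lower (12.9%, against 1.73% of all tested genes) and none higher. By the adjusted p, 18 went downward (58.1%, against 17.4%) and 4 upward (12.9%, against 17.3%), with a median log2 change of -0.34. HSPA8 (chr11:123057489-123063230), the constitutive HSP70 chaperone, fell from 2810 and 2781 CPM with AX-0085 to 883 and 904 CPM with both. Its log2 change was -1.65 (SE 0.07, edgeR adjusted p = 6.27e-09), 56.8% of that without the inhibitor. HSPA1A and HSPA1B encode the inducible HSP70 and are near-identical, so reads cannot be assigned to one of them with certainty. HSPA1A went from 373 and 356 CPM to 117 and 119 CPM (log2 change -1.63) and HSPA1B from 163 and 148 CPM to 49.9 and 51.8 CPM (log2 change -1.61). HSP90AA1, the inducible HSP90, was just past the fold limit, at 1681 and 1658 CPM with AX-0085 and 826 and 841 CPM with both. It lost its call with RLE scaling or DESeq2 (log2 change -0.99 each). The same held with no filter beyond 1 count (-0.997) and with the 4 libraries fitted alone (-0.9988). Its call was also lost without any 1 of 5 libraries (from -0.96 without the first IFNg_AX0085 library to -0.9995 without the first IFNg library). The 16 tested genes of the endoplasmic reticulum held no call in edgeR. By the adjusted p, 4 went upward (25%, against 17.3% of all tested genes) and 9 downward (56.2%, against 17.4%). HSPA5, the chaperone of that compartment, changed by 0.49 and CALR by -0.69, in opposite directions.

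Genes of epithelial identity went both ways. KRT4 (chr12:52806549-52814116), a keratin of stratified epithelia, went from 14.7 and 15.1 CPM with AX-0085 to 3.13 and 3.64 CPM with both, a log2 change of -2.14 (SE 0.11). With IFN-γ alone it fell further, from 29.4 and 28.2 CPM to 0.264 and 0.201 CPM. Of 16 tested airway epithelial genes 4 were lower under AX-0085 (25%, against 1.73% of all tested genes): KRT4, CEACAM6, EPCAM and SPDEF. None was higher, and 10 were lower with IFN-γ alone. By the adjusted p 7 went downward (43.8%, against 17.4%) and 6 upward (37.5%, against 17.3%). The upward changes reached 0.93 for the mucin gene MUC5B, and the list's median was -0.16. SPDEF, a transcription factor of secretory cells, was at 49.1 and 44.8 CPM with AX-0085 and 19.9 and 17.3 CPM with both, but at 0.0528 and 0.0402 CPM with IFN-γ alone. EPCAM, a surface adhesion protein that marks epithelial cells, changed by -1.52, and the adherens junction gene CDH1 by 0.65, also in the opposite sense to its change without the inhibitor (-1.73).

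Some inhibitors and targets of WNT signaling fell. DKK1 (chr10:52314281-52318042), a secreted antagonist of WNT receptors, went from 129 and 123 CPM to 30.1 and 29.7 CPM, a log2 change of -2.07 (SE 0.07, edgeR adjusted p = 7.13e-10), which is 69.8% of that without AX-0085. AXIN2 and NKD1, targets and brakes of the same pathway, changed by -1.17 and -1.42. In all, 3 of 8 tested members were called lower (37.5%, against 1.73% of all tested genes) and none higher. NKD2, a relative of NKD1, moved upward, from 2.47 and 2.48 CPM to 4.09 and 4.50 CPM, with a log2 change of 0.79 (edgeR adjusted p = 0.0057) that was short of the fold limit. BMP6, a ligand of the TGF-β family, was at 26.1 and 26.3 CPM with AX-0085 and 6.2 and 5.98 CPM with both. Its log2 change of -2.10 (SE 0.09) exceeded the -1.08 without the inhibitor, and the difference of -1.02 was called. FGB and FGG, chains of fibrinogen, changed by -1.87 and -1.04, while ORM1, another acute-phase gene, had 2 counts in each AX-0085 library and 12 and 10 with both, a ratio of 5.31 with a 95% counting interval of 1.80 to 21.2. FGG and ORM1 lost their calls when single libraries were left out: FGG without the first AX0085 or the second IFNg_AX0085 library (log2 change -0.81 and -0.78), ORM1 without any 1 of the 4 libraries (adjusted p between 0.0875 and 0.129). Other large falls were COL21A1, a fibril-associated collagen (-1.99), RAB11FIP4, a RAB11 effector (-1.81), the non-coding MGC4859 (-2.08), and the gene ENSG00000259316 (-1.70). Of the exon bases, 47.1% in MGC4859 and 85.2% in ENSG00000259316 overlap other genes.

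**Figure D5:**
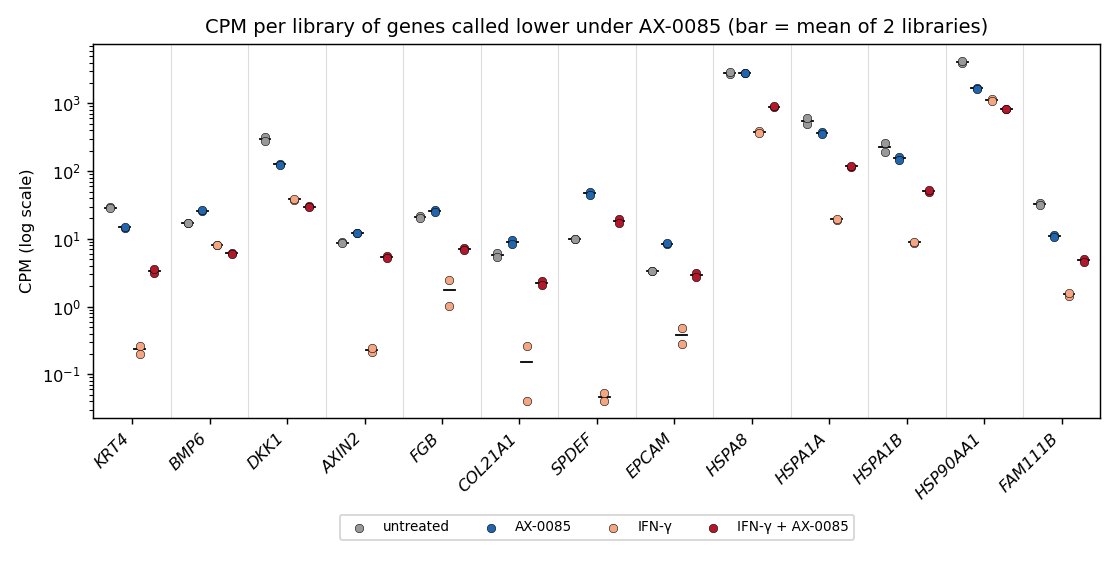
CPM per library on a log axis for 13 genes called lower under AX-0085, with the 4 groups in color and a bar at the mean of 2 libraries. In each gene the red points (IFN-γ with AX-0085) lie below the blue points (AX-0085). For HSPA8, the blue points lie at 2810 and 2781 CPM and the red points at 883 and 904 CPM.

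Of the cell cycle genes, 2 were called, both of DNA replication. Of 35 tested DNA replication genes, 22 (62.9%, against 17.4% of all tested genes) passed the adjusted p downward. Only 1 (2.86%, against 17.3%) passed it upward. FAM111B (-1.17) and CCNE2 were called lower (5.71%, against 1.73%). CCNE2, cyclin E2, was at the limit (-1.01) and lost its call without the first AX0085 library (-0.84), the first IFNg_AX0085 library (-0.66), the first untreated or the second IFNg library (-0.98 each), and with RLE scaling or DESeq2. LIG1, the ligase that joins Okazaki fragments, went from 54.6 and 56.1 CPM to 31.5 and 30.8 CPM, and RRM1, a subunit of ribonucleotide reductase, changed by -0.77. By the same adjusted p, 18 of 37 mitosis genes went upward (48.6%, against 17.3% of all tested genes) and 4 downward (10.8%, against 17.4%), with none past the fold limit in edgeR. NDC80, a kinetochore protein, was at 9.60 and 10.1 CPM with AX-0085 and 18.1 and 19.3 CPM with both, while untreated cells had 25.7 and 25.3 CPM and IFN-γ alone 27.8 and 25.6 CPM. BIRC5 changed by 0.72 under AX-0085 and -0.29 without it, and this difference was called. ERK-responsive genes had no call in 17 tested, near the 1.79% and 1.73% of all tested genes. By the adjusted p 8 went upward (47.1%, against 17.3%) and 2 downward (11.8%, against 17.4%). The log2 change was 0.99 for FOSL1 and 0.84 for ETV5. FOSL1 is at the limit: its change was 1.06 without the first AX0085 library and 1.10 without the first IFNg_AX0085 library, and it passed the limit with DESeq2.

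Mitochondrially encoded genes fell by the adjusted p, 11 of 13 (84.6%, against 17.4% of all tested genes). None was past the fold limit in edgeR, and the median log2 change of these genes was -0.64. They took 4.12% and 5.73% of the counts in the 2 AX-0085 libraries and 2.87% and 3.43% with both agents. The AX-0085 libraries differed more from each other than those with both. MT-CO3 changed by -0.75 (SE 0.15). The part of this shift in the other results was not tested. Of the reference genes, ACTB changed by 0.16 and RPL13A by 0.0007, and HPRT1 by -0.42 with an adjusted p of 0.00066 in edgeR.

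For some genes the difference between the effects did not pass the test. Where the mean log2 CPM reached 2, that held for 18 genes called higher in both effects and 12 called lower in both. A missed p does not show equal effects, and for genes with few counts such as GBP4 the interval is wide. SMOX, SLC3A2, ASS1, THBS1, PTGS2 and MSMO1 were picked from these after their values were seen. SMOX, which oxidizes spermine, was at 179 and 173 CPM with AX-0085 and 580 and 554 CPM with both, beside 646 and 576 CPM with IFN-γ alone. SLC3A2, the heavy chain of amino acid exchangers, went from 1165 and 1027 CPM to 2437 and 2416 CPM, a log2 change of 1.15 against 1.21 without AX-0085. ASS1, an enzyme of arginine synthesis, changed by 1.27 and 1.05, at levels that were higher with AX-0085 throughout. Among the lowered genes, THBS1 (-1.03), PTGS2 (-1.12) and MSMO1 (-1.08) had between 78.8% and 83.1% of their change without the inhibitor.

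Other genes responded to IFN-γ past the thresholds with the inhibitor and not without it. Of 166 such genes (90 higher and 76 lower), 64 also had a difference between the effects with an adjusted p under 0.05, and for the rest the difference was not shown. NPTX1 (chr17:80466834-80477843), a secreted neuronal pentraxin, was at 57.5 and 55.4 CPM with AX-0085 and 315 and 334 CPM with both. All libraries of the other groups lay between these, at 136 and 159 CPM untreated and 233 and 250 CPM with IFN-γ alone. Its log2 change was 2.52 (SE 0.08) against 0.71, and the difference of 1.81 was called (adjusted p = 3.12e-08). SLC51B, a subunit of a bile acid and steroid transporter, went from 3.15 and 3.54 CPM to 11.6 and 12.8 CPM, with 0.794 to 1.21 CPM in the 4 libraries without AX-0085. MICALL2, which links vesicle traffic to cell junctions, changed by 1.78 and 0.09, and RCOR2, a corepressor, by 1.29 and -0.59. GREM1, a secreted BMP antagonist, went down under the inhibitor (-1.03) and had a change of 0.99 without it. Its call was lost without the second AX0085 library (-0.94) or the first IFNg_AX0085 library (-0.84).

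In 22 genes the 2 effects were called in opposite directions, and the difference was called in all 22. In 18 of them IFN-γ raised the gene under AX-0085 and lowered it without. The most abundant of these, named after their values were seen, were SYT12, C11orf86, ERBB3 and ABCC6. SYT12, a synaptotagmin of vesicle release, was at 2.99 and 3.54 CPM with AX-0085 and 10.0 and 12.2 CPM with both, but at 12.1 and 13.6 CPM untreated and 1.58 and 1.45 CPM with IFN-γ alone. The receptor tyrosine kinase ERBB3 rose from 14.4 and 14.2 CPM to 31.3 and 27.9 CPM, and went from 4.86 and 4.24 CPM to 1.32 and 1.05 CPM without the inhibitor. Without the first IFNg_AX0085 library the log2 changes of ERBB3 and ABCC6 were 0.99 and 0.98, and without the second AX0085 library that of ABCC6 was 0.95 and that of C11orf86 0.93, under the limit of 1. In the other 4 genes (FCMR, IL1A, EXPH5 and LIPG, also named after their values were seen) the order was reversed, at levels of less than 1 CPM under AX-0085. IL1A had 7 and 12 counts with AX-0085 and 1 and 0 with both, a ratio of 19.7 with a 95% counting interval of 3.13 to 818, and its call was lost without the second AX0085 or either IFNg_AX0085 library (adjusted p between 0.0806 and 0.111). FCMR lost its call without either AX0085 library (adjusted p = 0.104 and 0.0759) or the first IFNg_AX0085 library (0.314), where its log2 change was -0.79 instead of -1.53. EXPH5 lost it without any 1 of 5 libraries and LIPG without any 1 of the 8 but the first AX0085 library, down to log2 changes of -0.81 and -1.06 without the second AX0085 library.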

How the data were processed

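The measurement was poly(A) RNA-seq of A549 cells, 8 libraries in 4 groups of 2. Per the labels and methods, the authors made stranded libraries, sequenced them in pairs, and the submitters' processing notes name bcl2fastq 2.20, Trim Galore 0.6.7, STAR 2.7.9a, featureCounts and DESeq2 on GRCh38. The deposited values are raw read counts per gene. The annotation release and the strand setting are not given in the sources used here. Counts of all 8 libraries were fitted in 1 model with edgeR 4.0.16 (R 4.3.3; filterByExpr, TMM, quasi-likelihood test), and IFN-γ with AX-0085 was contrasted with AX-0085. IFN-γ alone against untreated and the difference of both effects came from the same fit. P-values were adjusted by Benjamini-Hochberg over 15066 of 60664 genes, 26065 of which had a count. Depth of 20672828 to 29978251 counts set a floor of 3 counts. An exact permutation test of 2 against 2 libraries cannot go below p = 0.3333, so none was used.

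Genes named are the 10 largest rises and falls among genes whose log2 CPM averaged 2 or more and whose groups did not overlap, up to 4 members of each list by size of change, the 5 largest differences among genes called under AX-0085 only, and CD274, JAK2, HSPA1A, HSPA1B, ACTB, HPRT1 and RPL13A. Some were left out for length, some items are not reported here, and others were added as stated. The comparison and the 28 gene lists were chosen with earlier results of these data known. Names, exon overlap and coordinates came from GENCODE 44. The scripts were tested on simulated data. Alternatives were DESeq2 1.42.0, other scalings and filters, separate fits, a 2-fold test, the adjusted p alone, a replicate block and each library left out. Replicate numbers were not treated as pairs: deviations of same-numbered libraries with AX-0085 and with both agents correlated at -0.03 over genes.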

Additional observations from a re-analysis of the deposited data

Results flagged for a closer look

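The IFN-γ effect with AX-0085 differed from the effect without it for 2800 genes by the difference term of the edgeR fit (adjusted p under 0.05 and a log2 difference over 1 in size), 1826 higher and 974 lower. For the named genes that met this test, the log2 effect with AX-0085 minus the log2 effect without it is given in brackets.

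Of the presentation and immune genes it was HLA-B (-1.30), HLA-F (-1.59), PSMB9 (-2.34), PSMB8 (-2.07), PSMB10 (-3.76), PSME1 (-1.46), HLA-DMB (3.35), SERPING1 (-3.53), C4B (-1.86) and C4A (-1.62). Among interferon-inducible and signaling genes it was GBP1 (-6.26), GBP3 (-3.53), IFI27 (-3.22), IRF8 (-1.83), BATF2 (-5.17), SOCS3 (-2.14), CISH (1.35), PTPN6 (2.24), WARS1 (-3.04) and CD274 (-4.49). For cell death and cytokine genes the differences were IL1A (-5.87), IL18BP (-2.40), CASP1 (-3.94) and APOL1 (-1.86).

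Stress and chaperone genes gave HSPA8 (1.25), HSPA1A (3.20), HSPA1B (3.06), CALR (1.31), DDIT3 (-2.05), TRIB3 (-2.26), SESN2 (-3.52), ATF3 (-3.54), TXNIP (-6.87) and ARRDC4 (-3.28). Replication, mitosis and ERK-responsive genes gave FAM111B (3.25), CCNE2 (2.05), LIG1 (2.27), RRM1 (1.09), BIRC5 (1.01) and FOSL1 (-2.33). Epithelial, secreted and WNT genes gave KRT4 (4.80), BMP6 (-1.02), COL21A1 (3.38), FGB (1.80), FGG (1.90), AXIN2 (4.08), NKD2 (1.08), CEACAM6 (2.75), EPCAM (1.66), SPDEF (6.30), KRT19 (1.21), CDH1 (2.38) and ENSG00000259316 (3.41).

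Genes called only under AX-0085 had differences of NPTX1 (1.81), MICALL2 (1.69), SLC51B (1.63), RCOR2 (1.88) and GREM1 (-2.02), and those called in opposite directions SYT12 (4.84), C11orf86 (3.92), ERBB3 (3.02), ABCC6 (2.44), FCMR (-2.96), EXPH5 (-3.75) and LIPG (-3.49).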

How the results depend on the processing

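The 269 genes higher and 261 lower under AX-0085 became 184 and 130 with DESeq2, 147 and 98 where each library had to hold 10 counts of a gene, 62 and 18 with glmTreat, and 2601 and 2627 with the adjusted p alone. The genes higher in both effects went from 161 to 99 with 10 counts, 54 with glmTreat and 1828 with the adjusted p alone. Those lower in both went from 181 to 98 with DESeq2, 67 with 10 counts, 16 with glmTreat and 1933 with the adjusted p alone. The 2800 genes whose effect differed became 1120 with glmTreat and 7577 with the adjusted p alone. The median percent of the rise left, 25.2%, was 25.8% with DESeq2, 27.7% with library size alone and 26.5% with glmTreat. Leaving out 1 library gave 202 to 299 higher genes, 170 to 271 lower (170 without the first IFNg_AX0085 library), 2548 to 2765 that differed, 132 to 174 higher and 121 to 176 lower in both, and a median of 23.8% to 26.2%. No value changed direction under these alternatives.

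A replicate block gave 255 higher, 246 lower, 2738 that differed, and 155 and 177 in both. Of the named genes it lost XAF1 and LIPG (adjusted p = 0.0659 and 0.0655, edgeR) and no other. Pairing with the untreated numbers crossed, chosen after seeing the data, gave 267 higher and 264 lower. With 2 libraries per group, calls at a few counts can rest on single libraries. Where leaving out a library lost the call of a named gene, this is stated with the gene. Where both groups hold 3 counts or fewer in each library, a change is not detectable.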
